A study of Mus musculus with 42 samples.

Results

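Indirect pathway neurons are striatal projection neurons that inhibit the external globus pallidus, and they are told apart from direct pathway neurons by the genes Drd2, Adora2a, Penk and Gpr6. These 4 genes were followed across striatum and hippocampus of mice that were wild type or labelled as lacking the phosphodiesterase PDE10A. A gene was taken up where the platform annotation listed a probe set for it alone, which held for 3 of the 4: Drd2 (probe set 1418950_at), Penk (1427038_at) and Gpr6 (1440148_at), each with 1 probe set, out of 18193 genes tested. Adora2a had no such listed probe set and was not analysed here. No probe set of these genes was chosen by its values.

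Drd2 codes for the D2 dopamine receptor, which couples to Gi and Go proteins and lowers cAMP. Adora2a codes for the A2A adenosine receptor, which raises cAMP through Golf and adenylyl cyclase 5. Penk codes for proenkephalin, the precursor of the enkephalin peptides that these neurons release together with GABA, and Gpr6 for an orphan receptor that raises cAMP through Gs without an added ligand. PDE10A breaks down cAMP and cGMP in both classes of striatal projection neuron, so that its inhibition raises the second messengers on which D2 and A2A receptors act in opposite directions.

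Total RNA came from microdissected, snap-frozen tissue of C57BL6 mice and was measured on single-colour Affymetrix arrays, 42 in all. The 8 groups combine region, genotype label (WT or PDE10A KO) and treatment (vehicle or PDE10 inhibitor). Striatum gave 5 vehicle and 6 inhibitor arrays of WT mice and 5 vehicle and 4 inhibitor arrays of KO mice; hippocampus gave 6 and 6 of WT and 5 and 5 of KO mice. The sources used here do not give the compound, its dose, the interval to dissection, the age of the mice or the part of Pde10a removed. The labels do not say whether each array stands for its own animal; p-values then measure the spread between samples only, and that spread may be technical. Values are RMA signals on the log2 scale, on which a difference of 1 is a doubling, and precision is limited by how many arrays a group has. The signal of a probe set depends on its probes, so levels were compared between arrays and never between genes.

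The labelled tissue was checked against marker genes. The mean of 22 genes shared by both classes of striatal projection neuron lay between 10.62 and 11.62 in the striatal arrays and between 8.24 and 8.49 in the hippocampal arrays. The mean of 8 hippocampal subfield markers lay between 5.21 and 6.28 in striatum and between 6.44 and 9.05 in hippocampus, where the lowest array, WT inhibitor 13, stood well below the next value of 8.32. That array also had the highest hippocampal mean of cortical glutamatergic neuron markers (9.39) and the lowest of choroid plexus markers (5.36). Its label may thus not describe its tissue well, which was not tested. It was kept in the main fits and left out only in refits without single arrays. Pde10a was read from its probe set with the highest mean alone, and this probe set gave no check of the genotype labels. Its striatal means were 12.32 ± 0.26 (SD, n = 5) in WT vehicle and 12.35 ± 0.22 (n = 5) in KO vehicle arrays. A deletion that spares the sequence under a probe set leaves its signal, and whether that holds here was not tested. In hippocampus the KO groups read higher, from 9.04 to 10.16 in the 5 KO vehicle and from 9.51 to 9.81 in the 5 KO inhibitor arrays, against 8.94 to 9.04 in the 6 WT vehicle and 8.54 to 9.88 in the 6 WT inhibitor arrays. WT vehicle did not overlap KO inhibitor there (log2 difference 0.69 ± 0.20, unadjusted p = 0.0021, limma adjusted p = 0.327), and the other knockout differences were 0.47 under vehicle and 0.42 under inhibitor (adjusted p = 0.71 and 0.305). A score built on 15 genes of chromosome 17, which carries Pde10a, put 8 arrays on the side of the other genotype: KO vehicle 25 and WT inhibitor 13, 14 and 15 in striatum, and KO vehicle 25 and 26 and WT inhibitor 12 and 14 in hippocampus. Striatal WT inhibitor 13 and 15 scored 0.59 and 0.54, close to the cut of 0.5. KO vehicle 25 and WT inhibitor 14 were doubted in both regions. KO vehicle 26 scored 0.80 in striatum and 0.11 in hippocampus, and WT inhibitor 12 scored 0.03 and 1.04. Group names below are those of the labels, and results were recomputed without these 8 arrays. No call changed, and the signs that turned are given at the end. Arrays 13, 14 and 15 belong to the striatal WT inhibitor group, so differences of that group rest partly on labels in doubt.

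The sequences just before the start sites of Drd2 and Gpr6 are shown as background, because cAMP acts on transcription through the cAMP response element (CRE). Whether the motifs bear on any difference between arrays was not tested. They come from RefSeq (GRCm38.p6), with 2 of the 3 measured genes found in the promoter table and Penk only named. The 250 bases before the Drd2 start of that table are chr9:49340153-49340402 on the plus strand; the annotated gene begins upstream of that start, so the last 43 of these bases lie inside it. Those of Gpr6 are chr10:41072291-41072540 on the minus strand. Both are written 5′ to 3′ in the direction of the gene, and capitals mark matches to the motifs searched.
Drd2: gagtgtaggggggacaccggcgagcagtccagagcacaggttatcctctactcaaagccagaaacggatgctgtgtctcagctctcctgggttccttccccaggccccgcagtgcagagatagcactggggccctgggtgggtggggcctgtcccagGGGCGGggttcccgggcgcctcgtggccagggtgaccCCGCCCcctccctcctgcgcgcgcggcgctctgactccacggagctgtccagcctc
Gpr6: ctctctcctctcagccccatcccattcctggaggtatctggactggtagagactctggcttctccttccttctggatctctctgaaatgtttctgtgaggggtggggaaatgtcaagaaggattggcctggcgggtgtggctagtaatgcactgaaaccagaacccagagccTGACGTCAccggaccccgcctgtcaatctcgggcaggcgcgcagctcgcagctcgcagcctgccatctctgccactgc
Motifs were searched on both strands from 250 bases before to 50 bases after the start: the full CRE TGACGTCA, its core TGACG, and the GC box GGGCGG, a site known for Sp1-type factors. The Gpr6 sequence held the full CRE, from base -78 to base -71 counted from the start; the 2 core matches found there lie within it. The Drd2 sequence held a GC box at -93 to -88 and another, on the opposite strand, at -56 to -51, and no CRE or core. Of 32851 RefSeq promoters of the same length, 1.79% held the full CRE, 20.8% its core and 35.7% a GC box. A match is a string of letters in this window and not a measured binding site.

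All 3 genes were far higher in striatum than in hippocampus in every genotype and treatment group, and no striatal array overlapped a hippocampal array for any of them. The share of all genes without such overlap is not given here. The contrast between regions was fitted with limma over all 42 arrays in 8 groups, with Benjamini-Hochberg adjustment over 18193 genes, and all 3 genes passed at 0.05 in all 4 contrasts. The share of all genes called higher in striatum was 15.9% in WT vehicle, 18.4% in WT inhibitor, 12.5% in KO vehicle and 10.6% in KO inhibitor tissue.

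Gpr6 showed the largest difference toward striatum of all genes tested in each of the 4 contrasts. In WT vehicle tissue its mean was 10.66 ± 0.35 (SD, n = 5) in striatum and 4.69 ± 0.41 (n = 6) in hippocampus, a log2 difference of 5.98 ± 0.28 (SE; 95% interval 5.41 to 6.55) or 63.0-fold (limma adjusted p = 9.81e-20). In the other groups it was 75.1-fold higher in WT inhibitor, 53.4-fold in KO vehicle and 42.3-fold in KO inhibitor tissue. The hippocampal signal of this receptor gene ran from 3.99 to 6.30, close to the bottom of a table whose lowest value is 2.55. These folds thus rest on a weak hippocampal signal. It varied more between arrays than the striatal one, except in KO inhibitor tissue (SD 0.48 in hippocampus and 0.56 in striatum).

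Drd2 had 1 gene, Gpr6, above it in WT vehicle tissue. Its mean there was 10.93 ± 0.22 (n = 5) in striatum and 5.52 ± 0.34 (n = 6) in hippocampus, a log2 difference of 5.41 ± 0.18 (95% interval 5.04 to 5.77) or 42.4-fold (limma adjusted p = 1.15e-24). Hippocampal Drd2 lay below the array medians of 6.05 to 6.12 on average, and no detection call was used, so it is not known whether this signal or that of Gpr6 exceeded background; the folds are ratios of signals. The D2 receptor gene was 35.7-fold higher in WT inhibitor, 34.5-fold in KO vehicle and 29.8-fold in KO inhibitor tissue.

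Penk differed by the smallest fold of the 3 genes in each contrast. The enkephalin precursor gene had a WT vehicle mean of 13.49 ± 0.23 (n = 5) in striatum and 8.92 ± 0.42 (n = 6) in hippocampus, a difference of 4.57 ± 0.15 (95% interval 4.26 to 4.88) or 23.8-fold, and 8 genes differed by more. It was 34.7-fold higher in WT inhibitor, 28.9-fold in KO vehicle and 27.7-fold in KO inhibitor tissue.

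**Figure D1:**
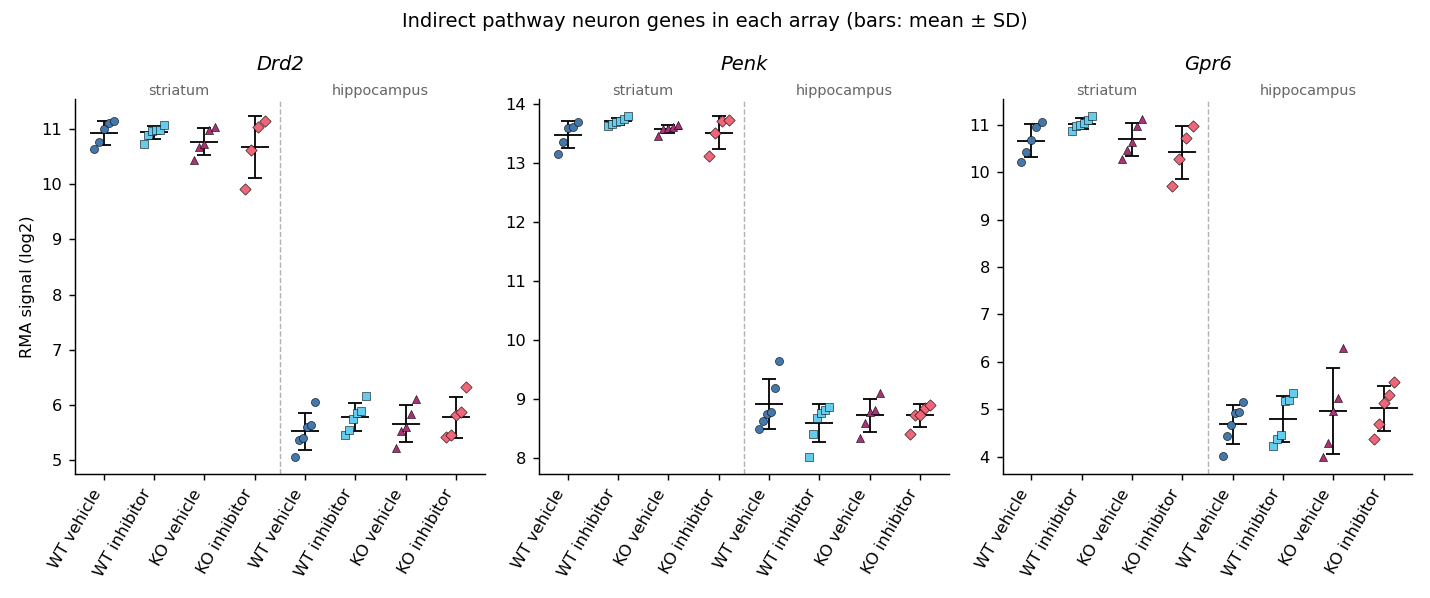
RMA signal (log2) of Drd2, Penk and Gpr6 in each of the 42 arrays by group; points are arrays, sorted by value within a group, and bars give the mean ± SD. Every striatal point lies above every hippocampal point, while the striatal groups overlap and KO inhibitor arrays reach lowest, to 9.90 for Drd2 and 9.71 for Gpr6.

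Within a region the picture was different: in 12 comparisons of genotype and treatment, 6 a region, none of the 3 genes passed the threshold (limma, 4 groups of a region in a shared fit, adjusted over 18193 genes). Of these 36 tests, 3 had an unadjusted p under 0.05, all in striatum. In striatum the share of all genes called was 0.181% for the inhibitor in WT, 0.137% for the knockout under vehicle, 0.0% for the inhibitor in KO, 0.0% for the knockout under inhibitor, 0.11% for KO inhibitor against WT vehicle and 0.0% for the difference of inhibitor effects between genotypes. In hippocampus it was 0.0%, 0.0%, 0.0%, 0.0055%, 0.033% and 0.0% in the same order. At an unadjusted p under 0.05, between 257 and 2216 genes were found in the striatal comparisons and between 695 and 2836 in the hippocampal comparisons. With so few genes called anywhere, a count of 0 among 3 genes is no different from the background. Comparisons that use the same control arrays, such as the inhibitor and knockout effects against WT vehicle, are not independent.

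Drd2 in striatal WT vehicle arrays 1 to 5 read 11.01, 10.76, 11.14, 11.10 and 10.64. The 6 WT inhibitor arrays ran from 10.72 to 11.07 with a median of 10.97. KO vehicle arrays 25, 26, 28, 29 and 30 read 11.03, 10.43, 10.67, 10.72 and 10.98, and KO inhibitor arrays 34, 35, 37 and 39 read 9.90, 11.14, 11.03 and 10.61. All 4 groups overlapped, and KO inhibitor 34 lay below every other striatal array. The inhibitor changed the mean in WT by 0.01 ± 0.17 (SE; 95% interval -0.34 to 0.35, limma adjusted p = 0.996), so a change beyond about 1.28-fold up or 0.79-fold down lies outside the interval. The knockout difference under vehicle was -0.16 ± 0.17 (interval -0.52 to 0.20, adjusted p = 0.985). The inhibitor difference in KO was -0.10 ± 0.18 (interval -0.48 to 0.29, adjusted p = 1.0), and the inhibitor effects of WT and KO differed by 0.10 ± 0.25 (interval -0.42 to 0.62, adjusted p = 0.985). In bulk tissue such as this, fewer cells of a type and less RNA per cell cannot be told apart.

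Penk in striatal WT vehicle arrays 1 to 5 read 13.62, 13.37, 13.59, 13.71 and 13.15. The 6 WT inhibitor arrays lay closer together, from 13.64 to 13.79 with a median of 13.71. KO vehicle arrays 25, 26, 28, 29 and 30 read 13.61, 13.47, 13.65, 13.60 and 13.58, and KO inhibitor arrays 34, 35, 37 and 39 read 13.13, 13.73, 13.71 and 13.51. The WT inhibitor arrays sat at the top of the range, above 4 of the 5 WT vehicle arrays, and overlapped WT vehicle 4. Their mean was higher than that of WT vehicle by 0.23 ± 0.10 (interval 0.02 to 0.44, 1.17-fold, unadjusted p = 0.036), which did not pass after adjustment (limma adjusted p = 0.472). Without WT vehicle 5, the lowest of its group, the difference was 0.14 (adjusted p = 0.81). The knockout difference under vehicle was 0.09 ± 0.10 (interval -0.13 to 0.31, adjusted p = 0.987), the inhibitor difference in KO was -0.06 ± 0.11 (interval -0.29 to 0.17, adjusted p = 1.0), and the inhibitor effects of WT and KO differed by 0.29 ± 0.15 (interval -0.03 to 0.60, adjusted p = 0.748).

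Gpr6 in striatal WT vehicle arrays 1 to 5 read 10.68, 10.42, 10.95, 11.06 and 10.21. The 6 WT inhibitor arrays ran from 10.86 to 11.18 with a median of 11.02. KO vehicle arrays 25, 26, 28, 29 and 30 read 11.13, 10.28, 10.47, 10.97 and 10.63, and KO inhibitor arrays 34, 35, 37 and 39 read 9.71, 10.98, 10.71 and 10.27. WT inhibitor arrays were again high and close together, and arrays of each other group overlapped them. The inhibitor difference in WT was 0.36 ± 0.19 (interval -0.04 to 0.76, 1.28-fold, limma adjusted p = 0.599), the knockout difference under vehicle 0.03 ± 0.20 (interval -0.39 to 0.45, adjusted p = 0.997) and the inhibitor difference in KO -0.28 ± 0.21 (interval -0.73 to 0.17, adjusted p = 1.0).

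The largest striatal differences of the 3 genes were those of Gpr6 between genotypes in treated mice. Under the inhibitor, KO arrays were lower than WT arrays by a mean of -0.61 ± 0.21 (interval -1.04 to -0.18, 1.52-fold, unadjusted p = 0.0081, limma adjusted p = 0.222), and the inhibitor effects of WT and KO differed by 0.64 ± 0.29 (interval 0.04 to 1.24, unadjusted p = 0.039, adjusted p = 0.651). Neither passed. Without KO inhibitor 34 the first difference was -0.37 (adjusted p = 0.642) and the second 0.40 (adjusted p = 0.934), and the inhibitor difference in KO was -0.042 in place of -0.28. With limma array weights the Gpr6 difference between KO and WT under inhibitor was -0.70 and passed (adjusted p = 0.030). Those weights come from each array's scatter around the same group fit and not from a separate measure of quality. Over all alternatives of the striatal results the adjusted p lay between 0.030 and 1.0. Drd2 and Penk were lower in the same comparison by -0.26 ± 0.18 (adjusted p = 0.61) and -0.19 ± 0.11 (adjusted p = 0.501), and without KO inhibitor 34 by -0.0082 and -0.063 (adjusted p = 0.995 and 0.935).

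By group mean, Drd2 was ordered WT inhibitor, WT vehicle, KO vehicle and KO inhibitor in striatum, Penk WT inhibitor, KO vehicle, KO inhibitor and WT vehicle, and Gpr6 WT inhibitor, KO vehicle, WT vehicle and KO inhibitor. Neighbours in these orders differed by less than the larger of their SDs, apart from Penk in WT inhibitor against KO vehicle, 0.13 apart with a larger SD of 0.067. All 3 genes thus had their highest striatal mean in WT inhibitor arrays, for Drd2 by 0.01 over WT vehicle.

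In hippocampus, where all 3 genes read lower than in striatum, the groups overlapped in every comparison. Drd2 ran from 5.06 to 6.06 (median 5.50) in WT vehicle, from 5.46 to 6.17 (median 5.80) in WT inhibitor, and from 5.23 to 6.32 in the KO groups. Penk ran from 8.50 to 9.64 (median 8.76) in WT vehicle, from 8.02 to 8.87 (median 8.72) in WT inhibitor, and from 8.35 to 9.10 in the KO groups. Its lowest value, 8.02, came from WT inhibitor 13, the array with the lowest subfield markers. Gpr6 ran from 4.00 to 5.15 (median 4.80) in WT vehicle, from 4.22 to 5.35 (median 4.81) in WT inhibitor, and from 3.99 to 6.30 in the KO groups, where KO vehicle 30 and 29 gave the ends of that range. The hippocampal differences of the 3 genes lay between -0.32 and 0.33, with adjusted p from 0.509 to 1.0.

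The 3 genes moved together from array to array within the striatal groups. After removal of each group's mean from the 20 striatal arrays, Drd2 and Gpr6 correlated with r = 0.884 (rho = 0.833), Penk and Gpr6 with r = 0.845 (rho = 0.792), and Drd2 and Penk with r = 0.845 (rho = 0.747). These are 3 of 15 relations computed, with p-values from 100000 permutations within groups; their Benjamini-Hochberg adjusted p were 0.00075, 0.00075 and 0.00133 for r and 0.00307, 0.00307 and 0.00559 for rho. Without the 2 arrays farthest from the median, r was 0.8, 0.745 and 0.732. The mean of 9 direct pathway genes moved with them as well, at r = 0.858 (rho = 0.767) for Drd2, 0.865 (rho = 0.83) for Penk and 0.73 (rho = 0.6) for Gpr6, with adjusted p of 0.0012, 0.00075 and 0.0131 for r and 0.00559, 0.00307 and 0.0475 for rho. Without the 2 farthest arrays these were 0.808, 0.77 and 0.574. Movement from array to array was thus shared with genes of the other pathway.

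The shared striatal projection neuron genes moved in step with all 3. Their mean correlated with Drd2 at r = 0.947 (rho = 0.944), with Gpr6 at r = 0.949 (rho = 0.934) and with Penk at r = 0.857 (rho = 0.803), and without the 2 farthest arrays at 0.912, 0.917 and 0.752. For Drd2 and Gpr6 the permutation p was 1e-05, the smallest that 100000 permutations can give (adjusted p = 7.5e-05), and for Penk the adjusted p was 0.00075 for r and 0.00307 for rho. Only 5 of 18171 genes outside that list followed the mean more closely than Drd2 and 4 more closely than Gpr6, against 53 for Penk. A rise of 1 in the shared mean went with a rise of 1.23 in Drd2, 1.45 in Gpr6 and 0.64 in Penk. With that slope removed the SD within groups fell from 0.300 to 0.099 for Drd2, from 0.352 to 0.114 for Gpr6 and from 0.172 to 0.091 for Penk.

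**Figure D2:**
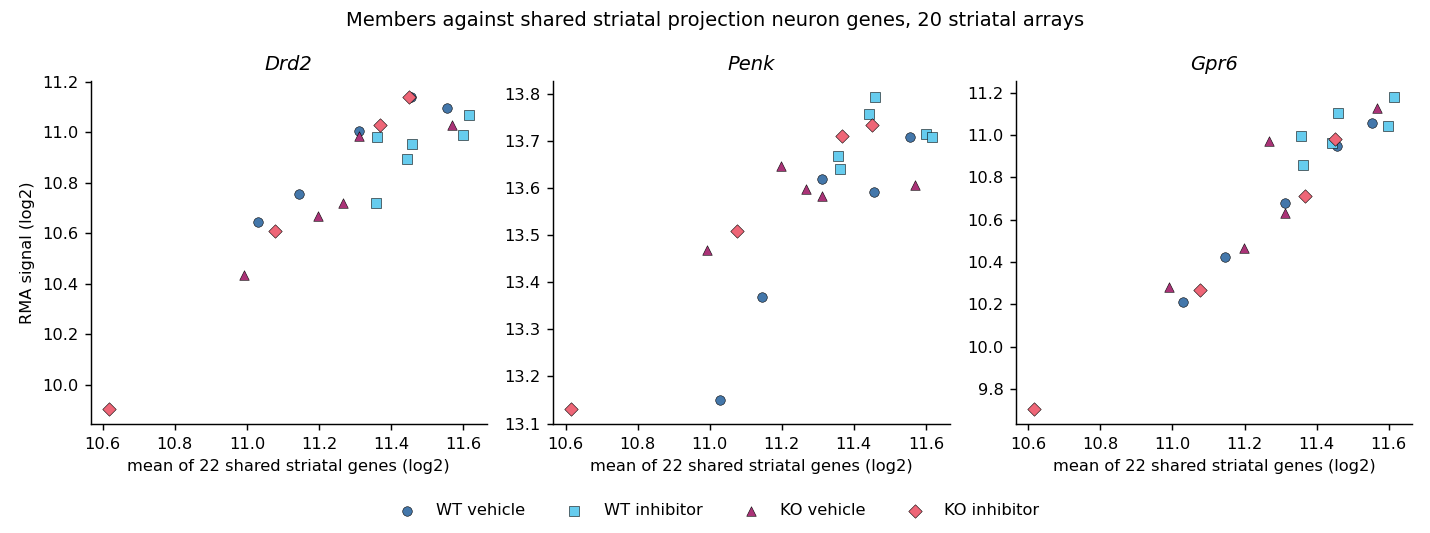
RMA signal (log2) of each gene against the mean of 22 shared striatal projection neuron genes in the 20 striatal arrays, with colour and shape marking the 4 groups. Points of all groups lie along a rising band, with KO inhibitor 34 at the lower end, where the shared mean was 10.62.

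Markers of cortical glutamatergic neurons, which lie next to striatum in a dissection, ran the other way. The mean of 8 such markers correlated with Drd2 at r = -0.58 (rho = -0.51, adjusted p = 0.055 and 0.053), with Penk at r = -0.62 (rho = -0.46, adjusted p = 0.06 and 0.107) and with Gpr6 at r = -0.68 (rho = -0.62, adjusted p = 0.00985 and 0.017). Without the 2 farthest arrays r was -0.47, -0.46 and -0.53. The marker mean ran from 6.69 to 8.50 in WT vehicle, 6.50 to 7.96 in WT inhibitor, 7.92 to 8.28 in KO vehicle and 6.94 to 9.03 in KO inhibitor striatum, and KO inhibitor 34 held the highest value of 9.03. Single markers spanned wide ranges in striatum, with Neurod6 between 3.19 and 8.85 and the vesicular glutamate transporter gene Slc17a7 between 6.30 and 10.76. None of the 8 markers passed in any striatal group comparison, although all 8 had a lower mean in WT inhibitor than in WT vehicle (median difference -0.75).

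Markers of endothelium and pericytes also moved with the WT inhibitor group. All 7 had a higher mean in WT inhibitor than in WT vehicle (median difference 0.34) and a lower mean in KO than in WT under the inhibitor (median -0.32), and none of the 7 passed in either comparison. Their mean ran from 7.95 to 8.23 in WT vehicle, 8.14 to 8.78 in WT inhibitor, 8.03 to 8.66 in KO vehicle and 8.12 to 8.19 in KO inhibitor striatum. WT inhibitor 10, 11 and 12 (8.65, 8.69 and 8.78) and KO vehicle 25 (8.66) stood above all other striatal arrays. The part of these markers in the differences of the 3 genes was not tested.

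Fits that took these measures as a covariate changed the group differences. With the cortical marker mean as covariate the Gpr6 difference between KO and WT under inhibitor was -0.17 (adjusted p = 0.798), and the inhibitor difference in WT was 0.09 for Penk (adjusted p = 0.733) and 0.05 for Gpr6 (adjusted p = 0.929). With the shared striatal gene mean as covariate the same 3 values were -0.11 (adjusted p = 0.825), 0.12 (adjusted p = 0.626) and 0.11 (adjusted p = 0.697), and the inhibitor difference of Drd2 in WT was -0.21 ± 0.07 (unadjusted p = 0.0071, adjusted p = 0.35). That mean is itself measured in treated tissue, and a treatment that moves all striatal genes would be taken out with it.

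**Figure D3:**
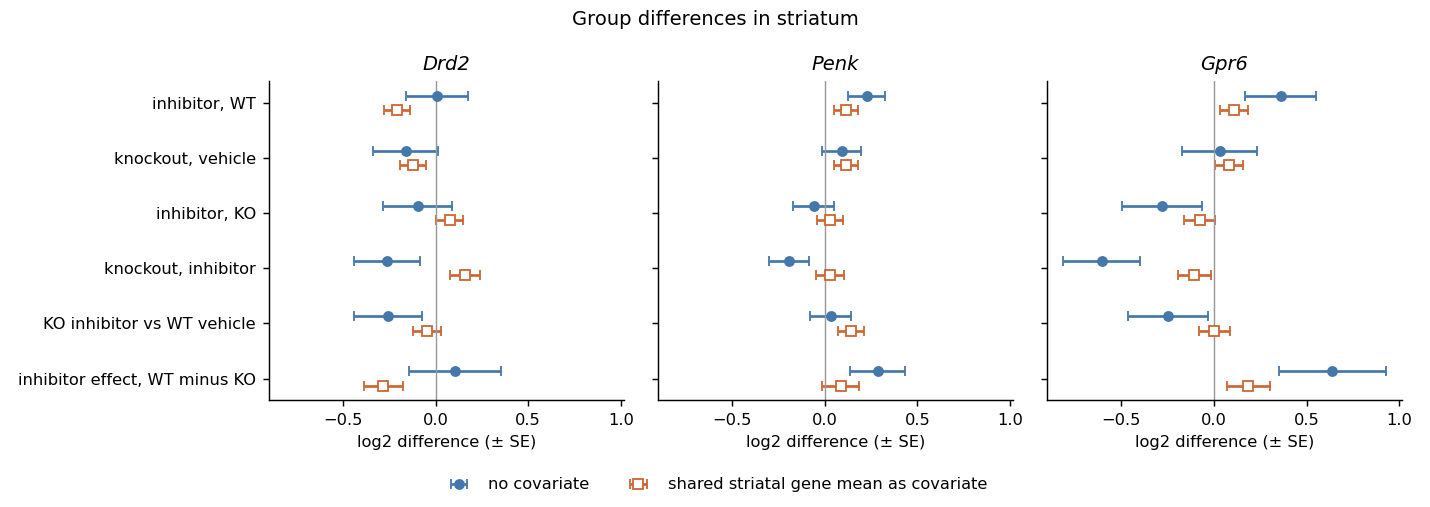
Log2 differences (± SE) of each gene for 6 striatal contrasts, without a covariate (filled circles) and with the shared striatal gene mean as covariate (open squares). Error bars shorten with the covariate, and the Gpr6 difference of the knockout under inhibitor moves from -0.61 to -0.11.

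RNA integrity showed a weaker relation to the 3 genes. The 3′ minus 5′ difference of the Gapdh control probe sets, which grows as RNA shortens, correlated with Drd2 at r = 0.319 (rho = 0.301, adjusted p = 0.206 and 0.241), with Penk at r = 0.486 (rho = 0.454, adjusted p = 0.0753 and 0.0999) and with Gpr6 at r = 0.537 (rho = 0.459, adjusted p = 0.0399 and 0.0898). Without the 2 farthest arrays, WT vehicle 4 and KO inhibitor 35, r was 0.117, 0.25 and 0.335, so the Gpr6 relation rests on those arrays. The difference ran from 0.18 to 1.05 in WT vehicle, 0.16 to 0.66 in WT inhibitor, 0.10 to 0.60 in KO vehicle and 0.14 to 0.67 in KO inhibitor striatum. Its part in the group differences was tested only by leaving out the highest array of each group, after which the Gpr6 difference between KO and WT under inhibitor was -0.78 (adjusted p = 0.056).

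Differences between members on the same array remove only what moves a pair of genes equally. Drd2, Gpr6 and Penk had unequal slopes on the shared striatal mean (1.23, 1.45 and 0.64), so these differences still carry part of it. They were looked at after the values had been seen and are given without a p-value. How often groups are apart for other pairs of genes is not given here. Penk minus Drd2 was 2.56 ± 0.08 (SD, n = 5; 2.45 to 2.61) in WT vehicle and 2.78 ± 0.12 (n = 6; 2.64 to 2.95) in WT inhibitor arrays, which did not overlap; in KO vehicle it was 2.81 ± 0.21 (n = 5) and in KO inhibitor 2.85 ± 0.28 (n = 4), with ranges that overlapped both. WT vehicle had the lowest group mean on this measure. Gpr6 minus Drd2 was -0.26 ± 0.15 (-0.43 to -0.04) in WT vehicle, 0.09 ± 0.13 (-0.12 to 0.27) in WT inhibitor, -0.07 ± 0.24 (-0.35 to 0.25) in KO vehicle and -0.25 ± 0.09 (-0.34 to -0.16) in KO inhibitor arrays. Of the 4 comparisons made on this measure, the groups were apart for KO inhibitor against WT inhibitor and overlapped in the other 3. Gpr6 minus Penk was -2.82 ± 0.16 in WT vehicle, -2.69 ± 0.10 in WT inhibitor, -2.88 ± 0.32 in KO vehicle and -3.10 ± 0.29 in KO inhibitor arrays, with overlap in all 4 comparisons.

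With any single array left out, the WT inhibitor minus WT vehicle difference of Penk minus Drd2 lay between 0.19 and 0.25. The KO minus WT difference under inhibitor of Gpr6 minus Drd2 lay between -0.38 and -0.31. Without the arrays of doubted genotype the values were 0.21 and -0.40. Leaving arrays out cannot make groups that are apart overlap, so these sets test only the size of the differences. With the slope on the shared striatal mean removed the values were 0.32 and -0.27 and the groups overlapped.

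**Figure D4:**
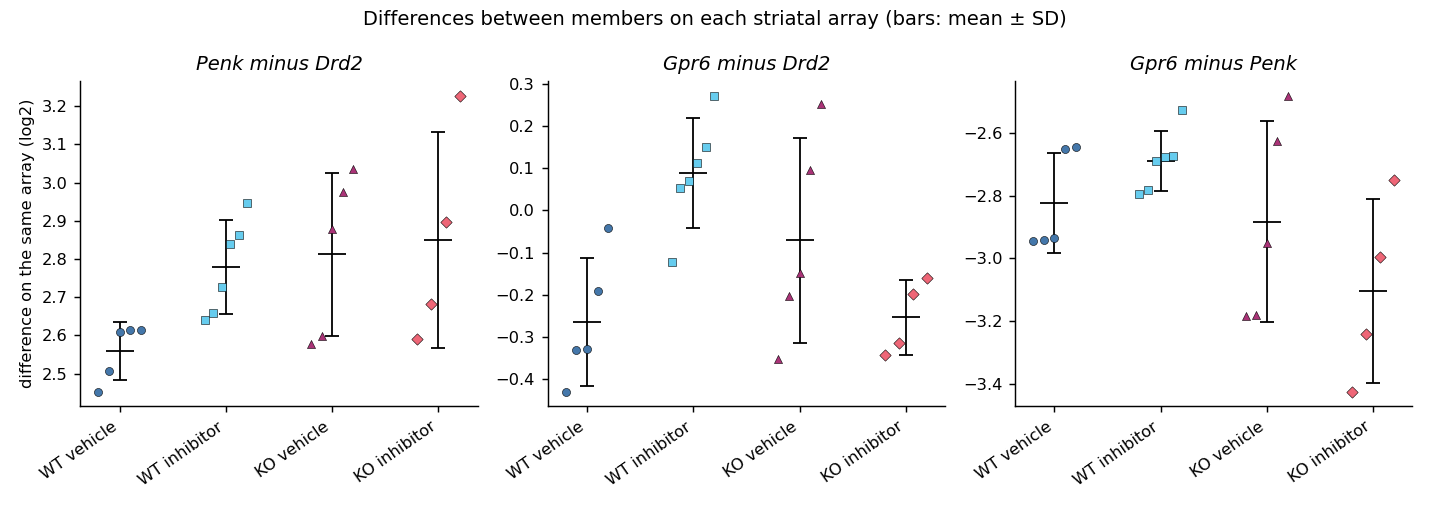
Log2 differences between 2 members on the same striatal array by group; points are arrays, sorted by value within a group, and bars give the mean ± SD. The WT vehicle mean is the lowest for Penk minus Drd2, where arrays of both KO groups overlap it. WT inhibitor arrays lie above KO inhibitor arrays for Gpr6 minus Drd2.

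The genes most like each member were named by the correlation of deviations from group means over the 20 striatal arrays, among 9095 other genes above the median signal. For Drd2 these were Pde1b (r = 0.947), a calmodulin-dependent phosphodiesterase, Ppp1r1b (0.941), which codes for DARPP-32, Adcy5 (0.930), the main striatal adenylyl cyclase, Tbc1d8 (0.930) and Kdm4b (0.923). For Gpr6 they were Inf2 (0.948), a formin, Ppp1r1b (0.944), Bcl11b (0.943), the transcription factor CTIP2, the small GTPase gene Rasd2 (0.936) and Syndig1l (0.923). For Penk they were Slc35d3 (0.918), which belongs to the list of direct pathway genes, Gad2 (0.908), a GABA-synthesising enzyme, Dgat2 (0.893), Pde1b (0.888) and Tmem158 (0.881). Other members ranked 18 and 41 for Drd2, 17 and 18 for Penk and 26 and 68 for Gpr6, so other genes followed each member more closely than the other members did. All points share the same arrays and dissections.

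Direct pathway genes, which mark the projection neurons that reach the substantia nigra, were set beside them. Deviations of the D1 receptor gene Drd1 correlated with the shared striatal mean at r = 0.834, those of the substance P precursor gene Tac1 at 0.657 and those of the dynorphin precursor gene Pdyn at 0.022. Over all 9 genes of the list r ran from -0.18 for Eya1 to 0.853 for Slc35d3. Of 9 direct pathway genes tested, 8 were higher and 1 lower in striatum than in hippocampus in WT vehicle tissue, among them Tac1 (23.4-fold) and Drd1 (23.8-fold). In the striatal group comparisons 1 of the 9 passed, Pdyn, which rose 2.61-fold with the knockout under vehicle (log2 1.39 ± 0.19, limma adjusted p = 0.0045) and 2.42-fold in KO inhibitor against WT vehicle (1.28 ± 0.20, adjusted p = 0.014). Penk, the peptide precursor of the other pathway, differed by 0.09 and 0.03 in the same comparisons. Whether Pdyn and Penk differ in this was not tested.

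A list of 5 further genes tied to indirect pathway neurons held Ptprm, Grik3, Plxdc1, Upb1 and Adk. In WT vehicle tissue 4 of the 5 were higher in striatum, with folds no larger than 2.59, which Grik3, a kainate receptor subunit gene, reached. Their median difference was 0.38, against 0.03 over all genes tested. Of the 5, none passed in a striatal group comparison. With the inhibitor in WT, Plxdc1 differed by -0.76 ± 0.19 (limma adjusted p = 0.134) and Grik3 by -0.39 ± 0.10 (adjusted p = 0.144); with the knockout under vehicle all 5 had negative differences, with Upb1 at -0.41 ± 0.14 (adjusted p = 0.479). Their mean ran from 8.33 to 8.43 in WT vehicle, 8.05 to 8.23 in WT inhibitor, 8.06 to 8.18 in KO vehicle and 8.07 to 8.27 in KO inhibitor striatum, so that WT vehicle arrays lay above the rest. Correlations of their deviations with the shared striatal mean ran from -0.65 for Plxdc1 to 0.57 for Upb1, against 0.857 to 0.949 for the 3 members.

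Genes that act downstream of the 3 receptors were described from lists by role. In the WT vehicle contrast between regions 15.9% of all genes were called higher and 17.9% lower in striatum, against which the counts of each list are to be read. Of 12 genes of D2 receptor coupling, 5 were higher and 3 lower in striatum in WT vehicle tissue, led by Rgs9 (21.1-fold), a brake on Gi and Go signalling, with Gnb5, its partner subunit, at 1.99-fold; the list's median difference was 0.11. Of 15 genes of A2A coupling and cAMP, 9 were higher and 4 lower, with a median of 0.87, among them Ppp1r1b (18.9-fold), Adcy5 (7.98-fold) and Pde1b (7.68-fold). None of the genes of either list passed in a striatal group comparison. Crem, a cAMP-responsive transcriptional modulator, was 0.93 ± 0.22 higher with the knockout under vehicle (limma adjusted p = 0.122), and Gng7, the G protein subunit that pairs with Golf, 0.44 ± 0.18 with the inhibitor in WT (adjusted p = 0.402). In the latter comparison 14 of the 15 A2A and cAMP genes had positive differences (median 0.15, against -0.00045 over all genes), as did 18 of the 22 shared striatal genes (median 0.13). The lists have 6 genes in common, so these counts are not separate observations.

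The remaining lists concern ligands and relatives. Of 10 tested genes for enkephalin processing, breakdown and receptors, 2 were higher and 1 lower in striatum: the enkephalin-cleaving protease gene Mme (10.3-fold) and the kappa opioid receptor gene Oprk1 (5.99-fold) were higher, and the prohormone-processing carboxypeptidase gene Cpe was 1.11-fold lower. Of 8 genes of adenosine supply and clearance, 3 were higher, with the nucleoside transporter gene Slc29a1 at 1.60-fold and the adenosine-producing ecto-enzyme gene Nt5e at 1.40-fold. Of the 3 closest relatives of Gpr6, Gpr12 was 1.48-fold higher in striatum, while Gpr3 and S1pr1 did not pass. None of the genes of these 3 lists passed in a striatal group comparison.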

How the data were processed

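The deposited table holds log2 values of 45101 probe sets on 42 arrays, computed by the authors with RMA according to the submitters' processing notes. The log2 scale was read from the values (2.55 to 15.1), and array medians lay between 6.05 and 6.12. RMA removes a background and equalises the distribution of values across arrays; the sources used here do not say whether every array went through the same run. No arrays held identical values.

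Control probe sets (64) and probe sets that listed several genes (932) or no gene (9160) were set aside. Of the 34945 that listed a single gene, 34741 were matched to RefSeq names (GRCm38.p6), and each of 18193 genes was represented by its probe set with the highest mean. Of 154 entries in 17 gene lists, 146 had a tested gene. The members and the lists were chosen with earlier results of these data known.

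Groups were compared with two-sided limma tests (version 3.58.1, R 4.3.3) from lmFit and eBayes, with a Benjamini-Hochberg threshold of 0.05, and with the 4 groups of a region in a shared fit, and with 8 groups for contrasts between regions. The fits were checked on simulated data. Correlations used deviations from group means and permutations within groups. Named are the 3 measured members, Pde10a, the 5 genes above the median striatal signal with the highest such correlation to each member, and of each list up to 3 genes with the smallest p, those past the threshold first. Names with values outside this rule were chosen after the values had been seen. Differences between members on the same array were described in 12 comparisons by means, SDs and ranges. No p-values are given for them, because the measure was chosen after the values had been seen and covers the members alone.

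The chromosome 17 score uses 15 genes that best separated the genotype labels in whichever region was not being scored, is scaled from 0 at the WT vehicle median to 1 at the KO inhibitor median, and marks an array as doubted on the other genotype's side of 0.5. Alternatives changed the probe set rule, the filter on dim genes, the normalization, array weights, covariates and the arrays used. Replicate numbers recur in both regions. Deviations of same-numbered arrays correlated between -0.38 and 0.31 over 20 pairs, 6 of them above 0.1. Such correlations between tissues cannot decide whether same-numbered arrays come from the same animal. The main fits did not treat arrays as pairs.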

Additional observations from a re-analysis of the deposited data

How the results depend on the processing

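All 12 regional differences kept their direction and passed in all 210 refits, with adjusted p no higher than 2.2e-10. Whether the replicate number pairs the arrays is not known. A block for that number gave regional values between 4.49 and 6.23 and changed no call, with Gpr6 at 5.98 in WT vehicle. Of the 18 striatal results, the Gpr6 difference between KO and WT under inhibitor alone changed its side of the threshold, with array weights (-0.70, adjusted p = 0.030). The 18 hippocampal results stayed without a call, with adjusted p from 0.291. The comparison restricted to the groups compared was not run for differences of inhibitor effects, which use all 4 groups. No array was an outlier of its group for any of the 3 genes by Dixon's test in 24 sets. With 4 to 6 arrays a group, that test can flag only extreme values. KO inhibitor 34 was not flagged, although leaving it out moved the Drd2 knockout difference under inhibitor from -0.26 to -0.0082.

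Signs turned only for values without a call, and the cause was not tested. With the shared striatal gene mean as covariate, Drd2 turned to -0.21 for the inhibitor in WT, 0.076 for the inhibitor in KO, 0.16 for the knockout under inhibitor and -0.28 for the difference of inhibitor effects, Penk to 0.030 and 0.027 for the inhibitor in KO and the knockout under inhibitor, and Gpr6 to 0.0021 for KO inhibitor against WT vehicle. With the cortical marker mean as covariate, striatal Drd2 turned to -0.22 for the inhibitor in WT, 0.051 for the knockout under inhibitor and -0.14 for the difference of inhibitor effects. In hippocampus that covariate gave Gpr6 -0.15 and -0.033 for the inhibitor in WT and KO and -0.12 for their difference, and Penk 0.021 for the inhibitor in KO. The cortical marker mean ran from 8.96 to 9.39 in hippocampus, and its marker Neurod6 is also a subfield marker. It therefore cannot be read as neighbouring cortex in that region. Without the arrays of doubted genotype, striatal Drd2 was -0.0020 for the inhibitor in WT, Gpr6 -0.075 for the knockout under vehicle, and the hippocampal difference of inhibitor effects -0.046 for Gpr6. Array weights gave Gpr6 -0.0022 for the striatal knockout under vehicle and -0.22 for the hippocampal difference of inhibitor effects. Renewed quantile normalization gave striatal Drd2 -0.013 for the inhibitor in WT, hippocampal Drd2 0.010 for the knockout under inhibitor and Gpr6 -0.043 for the hippocampal difference of inhibitor effects.

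With single arrays left out, striatal Drd2 ranged from -0.065 to 0.059 for the inhibitor in WT, from -0.25 to 0.16 for the inhibitor in KO and from -0.15 to 0.26 for the difference of inhibitor effects. Striatal Penk ranged from -0.13 to 0.070 for the inhibitor in KO and from -0.051 to 0.16 for KO inhibitor against WT vehicle, and Gpr6 from -0.080 to 0.14 for the knockout under vehicle. In hippocampus Drd2 ranged from -0.021 to 0.23 for the inhibitor in KO and from -0.14 to 0.086 for the knockout under inhibitor, and Penk from -0.097 to 0.090 for the inhibitor in KO. Hippocampal Gpr6 ranged from -0.030 to 0.22 for the inhibitor in WT, from -0.065 to 0.51 for the knockout under vehicle, from -0.18 to 0.39 for the inhibitor in KO and from -0.29 to 0.29 for the difference of inhibitor effects. The turns of Drd2 and Penk for the inhibitor in striatal KO, and of Drd2 for the striatal difference of inhibitor effects, came without KO inhibitor 34.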
